A study of Mus musculus with 12 samples.

Results

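The genes described here encode 10 proteins that hydroxylate, fold or crosslink collagen: the prolyl 4-hydroxylase subunits P4ha1, P4ha2 and P4ha3, the lysyl hydroxylases Plod1, Plod2 and Plod3, the lysyl oxidases Lox, Loxl2 and Loxl3, and the chaperone Serpinh1. They were taken by symbol from a table of 32544 genes, of which 14285 held enough counts to be tested, and all 10 were among those tested. P4ha3 and Serpinh1 passed that filter through the fibroblast libraries, since no macrophage library held more than 6 counts of either. RNA had been sequenced from bone marrow-derived macrophages (BMDMs) 24 h after seeding and from NIH/3T3 cells, an established mouse fibroblast line, after 72 h in macrophage-conditioned medium, with 3 libraries in each of 4 groups. BMDMs labelled PHD2cko came from mice in which LysM-driven Cre, active in myeloid cells, removes PHD2, an oxygen-dependent enzyme that marks hypoxia-inducible factor (HIF) for degradation. Both the PHD2cko mice and their controls, labelled WT, carried LysMCre and lacked the LDL receptor, and all BMDMs had been differentiated with L929-conditioned medium. The fibroblasts had been starved in low serum and then kept in medium conditioned by WT or by PHD2cko BMDMs, which also held L929-conditioned medium. Medium had been collected under normal or low oxygen, and the sources used here do not say which was used for the sequenced fibroblasts. No source says that the 3 libraries of a group came from separate animals or cultures, so p-values measure the spread between these libraries, which may be technical.

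Collagen chains are modified in the endoplasmic reticulum before they are secreted. Prolyl 4-hydroxylases stabilise the triple helix, lysyl hydroxylases prepare lysines for crosslinking and for the attachment of sugars, and SERPINH1 (HSP47) is a chaperone that binds the folded helix. Outside the cell, lysyl oxidases oxidise lysines and hydroxylysines so that collagen molecules crosslink. Both kinds of hydroxylase need oxygen and 2-oxoglutarate, as the PHD enzymes do, and P4ha1, P4ha2, Plod2 and Lox are known as HIF target genes.

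Library totals ran from 15516465 to 25199770 counts. Egln1, the gene of PHD2, was at 55.4 ± 0.574 counts per 1e6 (CPM) in WT BMDMs and at 69.6 ± 1.77 CPM in BMDMs labelled PHD2cko (SD, n = 3 each). The mRNA of the targeted gene was therefore not lower but higher with the label PHD2cko, a check that a whole-gene value without exons can make only in part, and directions below follow the labels. With the same label, 15 of 24 HIF target genes passed the test used below as higher in BMDMs and 0 as lower, as described with that list. Fibroblast library 1 in WT medium stood apart: chi-square over its degrees of freedom was 23.1 and 24.9 between its counts and those of the other libraries of its group, and from 1.97 to 7.90 in other pairs of replicates.

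Each fibroblast library was also read for macrophage RNA and each BMDM library for fibroblast RNA. The summed CPM of 23 macrophage markers in fibroblasts was 0.116 ± 0.00612% of that in BMDMs with WT medium, with a range of 0.109 to 0.120%, and 1.67 ± 0.95% with PHD2cko medium, with a range of 0.583 to 2.34% (SD, n = 3 each, exact two-sided permutation p = 0.1 for the summed CPM, the smallest that 3 against 3 libraries allow). Fibroblast library 2 in PHD2cko medium held the lowest of these 3 shares. No marker was at 0 in all 3 libraries of either medium, and Lyz2, Csf1r and Adgre1, which define macrophages, had at most 85, 63 and 6 counts in a library with WT medium and at least 659, 319 and 91 with PHD2cko medium. Some other markers overlapped between the media in counts. Trem2 had 299 to 470 against 308 to 522, Mertk 202 to 365 against 266 to 315, and Aif1 12 to 23 against 22 to 29. With WT medium, Trem2 and Mertk had the highest mean CPM of all markers, 18.0 and 13.6, at 3.29% and 11.1% of their BMDM level. The WT medium share leans on these 2 genes, while Lyz2, Csf1r and Adgre1 were at 0.0223%, 0.0603% and 0.00963%. In the other direction, the summed CPM of 16 fibroblast markers in BMDMs was 0.0216 ± 0.00920% (range 0.0119 to 0.0303%) of that in fibroblasts with the WT label and 0.0257 ± 0.00149% (range 0.0243 to 0.0273%) with the label PHD2cko, ranges that overlap. The summed CPM themselves ran from 3.02 to 7.67 in WT BMDMs and from 7.78 to 8.71 with the label PHD2cko (exact two-sided permutation p = 0.1). Twist1 was at 0 counts in all BMDM libraries and Twist2 in those labelled PHD2cko. Fap, another listed marker, was low in both cell types, with 54 counts in 3 fibroblast libraries with WT medium, and so marked neither.

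In BMDMs, P4ha1 and P4ha2 were higher in the libraries labelled PHD2cko, and none of the other 8 members passed the test. The threshold was an adjusted p of 0.05 in the quasi-likelihood test of edgeR, where p-values had been adjusted by Benjamini and Hochberg's method over all genes tested. The 2 members stand beside a background of 6.73% of genes past the threshold, 3.38% as higher and 3.35% as lower. In 5 of 10 members the 3 libraries of one label did not overlap in CPM with those of the other, 4 being higher and 1 lower with the label PHD2cko, where 31.9% of all genes did not overlap. Serpinh1 is 1 of those 4 on at most 6 counts in a BMDM library, and P4ha3 was at the floor there, so among the other 8 members 3 were higher and 1 lower without overlap. In fibroblasts, Plod2 was higher and Plod3 and Lox were lower in PHD2cko medium, 3 of 10 members beside a background of 15.7% (8.93% higher and 6.75% lower). Here 6 of 10 members did not overlap, 4 higher and 2 lower, beside 31.9% of all genes. These backgrounds move with the fit: the 961 genes called in BMDMs became 527, 596 or 607 without WT BMDM library 1, 2 or 3, 535 or 603 without BMDM library 1 or 2 labelled PHD2cko, 1889 without fibroblast library 1 in WT medium and 2534 with the 6 BMDM libraries alone, and the 2240 called in fibroblasts became 1319 or 1260 without PHD2cko medium library 1 or 3 and 912 with the 6 fibroblast libraries alone. The CPM of every member in every library are drawn as points.

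**Figure D1:**
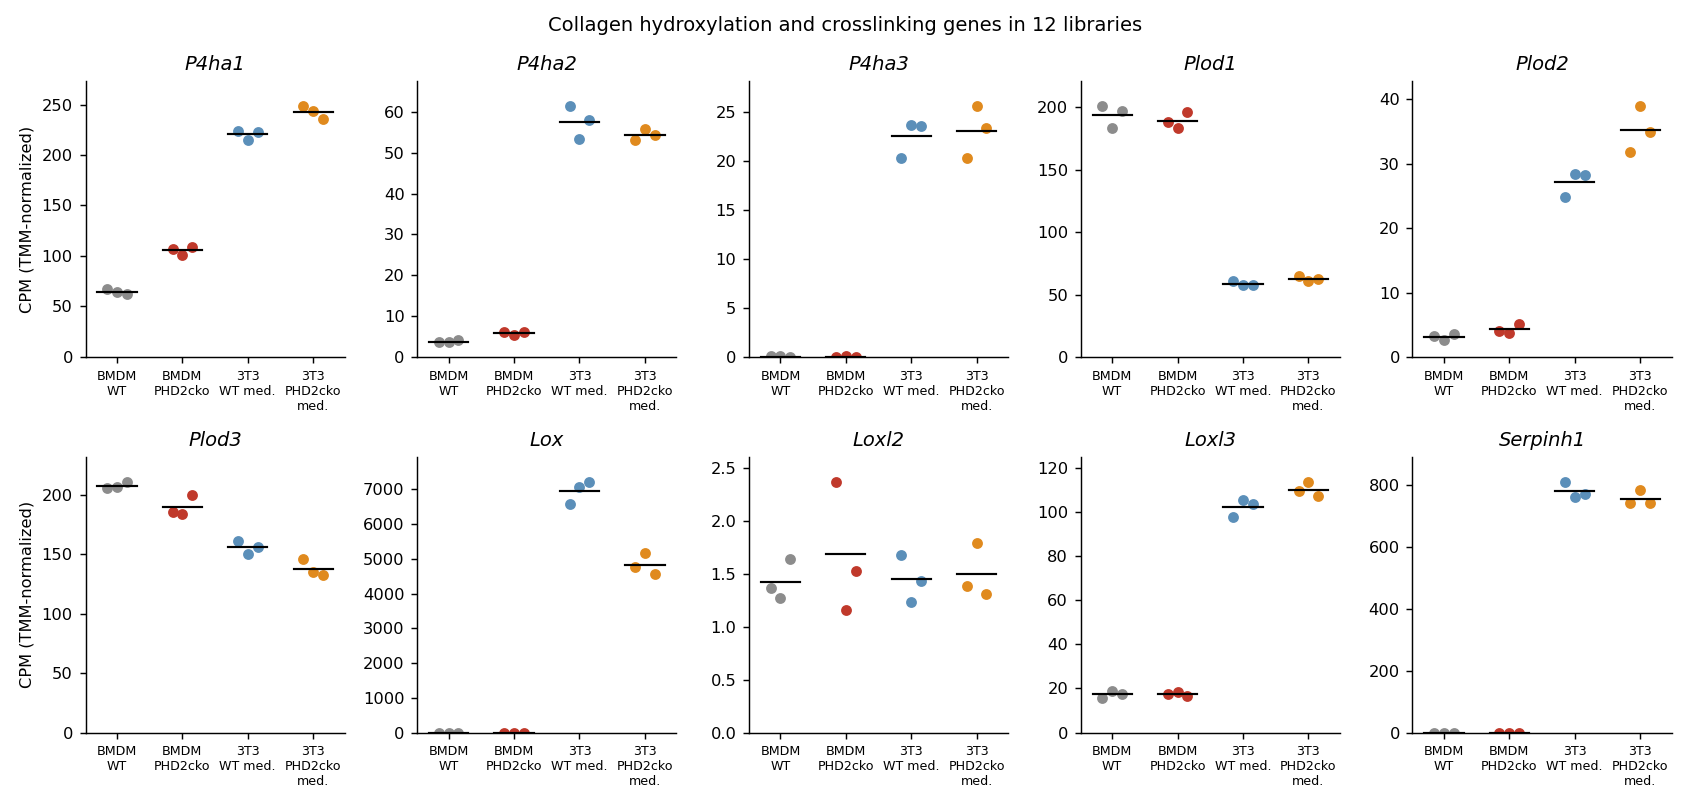
CPM (TMM-normalized, linear axis from 0, own scale per gene) of the 10 members in the 12 libraries, with a point per library and a line at the mean of the 3 libraries of a group. P4ha1 lies between 62.5 and 67.6 CPM in WT BMDMs and between 101 and 109 CPM with the label PHD2cko, and Lox lies between 6585 and 7214 CPM in fibroblasts in WT medium and between 4559 and 5157 CPM in PHD2cko medium.

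P4ha1 and P4ha2 encode the more widely used catalytic subunits of prolyl 4-hydroxylase, and P4ha3 another one. P4ha1 (ENSMUSG00000019916.14) lies on the plus strand of chromosome 10 from 59323296 to 59373304, P4ha2 (ENSMUSG00000018906.14) on the plus strand of chromosome 11 from 54100095 to 54131665, and P4ha3 (ENSMUSG00000051048.17) on the plus strand of chromosome 7 from 100285520 to 100319699 (GENCODE on GRCm38). Their promoters are shown because the first 2 rose together in BMDMs and the third was at the floor there. The windows are those of RefSeq on GRCm38.p6, with 250 bases before and 50 after the RefSeq start, 5′ to 3′ on the strand of the gene, at chr10:59323046-59323345, chr11:54100674-54100973 and chr7:100285270-100285569. For P4ha2 that start lies downstream of the GENCODE start of the gene. Capitals mark ACGTG and GCGTG, the core letters of hypoxia response elements, and their reverse complements CACGT and CACGC. The letters CACGTG hold a match on each strand, and overlapping matches were counted each.
P4ha1 promoter: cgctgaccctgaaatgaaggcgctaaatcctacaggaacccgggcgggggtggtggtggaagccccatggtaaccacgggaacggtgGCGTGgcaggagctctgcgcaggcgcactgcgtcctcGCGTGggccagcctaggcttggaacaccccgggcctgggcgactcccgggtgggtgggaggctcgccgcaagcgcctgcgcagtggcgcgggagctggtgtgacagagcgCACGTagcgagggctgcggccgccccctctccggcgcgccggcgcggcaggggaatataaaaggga
P4ha2 promoter: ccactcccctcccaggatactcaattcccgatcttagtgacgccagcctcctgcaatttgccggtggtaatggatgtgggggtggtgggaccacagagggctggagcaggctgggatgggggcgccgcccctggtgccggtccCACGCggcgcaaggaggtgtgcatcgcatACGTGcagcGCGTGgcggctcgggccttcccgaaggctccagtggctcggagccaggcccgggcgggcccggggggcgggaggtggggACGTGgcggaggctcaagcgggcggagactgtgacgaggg
P4ha3 promoter: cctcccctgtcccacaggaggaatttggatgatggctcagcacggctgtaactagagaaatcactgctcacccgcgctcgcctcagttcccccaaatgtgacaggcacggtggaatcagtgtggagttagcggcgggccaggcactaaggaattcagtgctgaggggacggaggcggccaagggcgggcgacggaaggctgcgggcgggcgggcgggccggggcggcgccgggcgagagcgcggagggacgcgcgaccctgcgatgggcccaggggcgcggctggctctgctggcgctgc

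The P4ha1 window held 3 matches, the P4ha2 window 4 and the P4ha3 window 0. Of the 10 members, 6 had a window: Plod1 had 2 matches, Plod3 had 4 and Serpinh1 had 1. Plod2, Lox, Loxl2 and Loxl3 had no window among the promoters used, so they were not scanned for matches. At least 1 match stood in 43.8% of all 32851 promoters and in 59.9% of the 13130 promoters of genes tested, and at least 3 matches in 8.93% and 15.0% of them. These are letters in a window, and no binding was measured.

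P4ha1 had 1042, 1061 and 1028 counts in WT BMDMs and 1767, 1485 and 2078 in BMDMs labelled PHD2cko. That is 67.6, 64.2 and 62.5 CPM against 107, 101 and 109 CPM, and the groups did not overlap. This was a log2 fold change of 0.71 (standard error 0.0488, edgeR adjusted p = 2.27e-06), or 1.64-fold. P4ha2, at a far lower level, had 55, 59 and 67 counts in WT and 102, 79 and 115 with the label PHD2cko. In CPM these were 3.57, 3.57 and 4.08 against 6.19, 5.40 and 6.04, again with no overlap. Its log2 fold change was 0.65 (standard error 0.109, edgeR adjusted p = 0.00275), or 1.57-fold. Both stayed past the threshold with each library left out in turn, with log2 fold changes of 0.68 to 0.74 for P4ha1 and 0.62 to 0.72 for P4ha2. P4ha3 had 1, 1 and 0 counts in WT and 0, 2 and 0 with the label PHD2cko, so no fold is given.

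In fibroblasts, neither gene passed the test. P4ha1 was at 224, 215 and 223 CPM in WT medium and at 248, 243 and 235 CPM in PHD2cko medium. The groups did not overlap, but the log2 fold change was 0.14 (standard error 0.0459, edgeR adjusted p = 0.0663). P4ha1 passed in 5 of 8 other settings, with adjusted p between 0.0132 and 0.135 over the 8, and without library 1 in WT medium (log2 fold change 0.17, adjusted p = 0.00778). P4ha2 was at 61.4, 53.4 and 58.0 CPM against 53.1, 55.7 and 54.3 CPM, which overlapped, with a log2 fold change of -0.08 (standard error 0.0576, edgeR adjusted p = 0.385). P4ha3, which fibroblasts did transcribe, was at 20.3, 23.6 and 23.6 CPM against 20.2, 25.6 and 23.3 CPM, with a log2 fold change of 0.03 (standard error 0.116, edgeR adjusted p = 0.898).

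The difference between both label effects was tested as a contrast in the same fit. P4ha1 had a larger log2 fold change in BMDMs than in fibroblasts by 0.57 (standard error 0.0670, edgeR adjusted p = 0.000247), and P4ha2 by 0.74 (standard error 0.124, edgeR adjusted p = 0.00178). These were the 2 members with a different effect in the 2 cell types, beside 12.3% of all genes (4.58% with the higher effect in BMDMs and 7.71% with the lower). Both passed with each library left out, with the macrophage share subtracted from the fibroblast libraries, and in every other setting. Macrophage RNA, estimated from the marker share, made up at most 0.810% of the P4ha1 value and 0.210% of the P4ha2 value in any fibroblast library. Such values are estimates and not bounds. Single markers in PHD2cko medium were at 0.140% (Clec7a) to 13.2% (Mertk) of their BMDM level. The plot of label effects sets both cell types side by side.

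**Figure D2:**
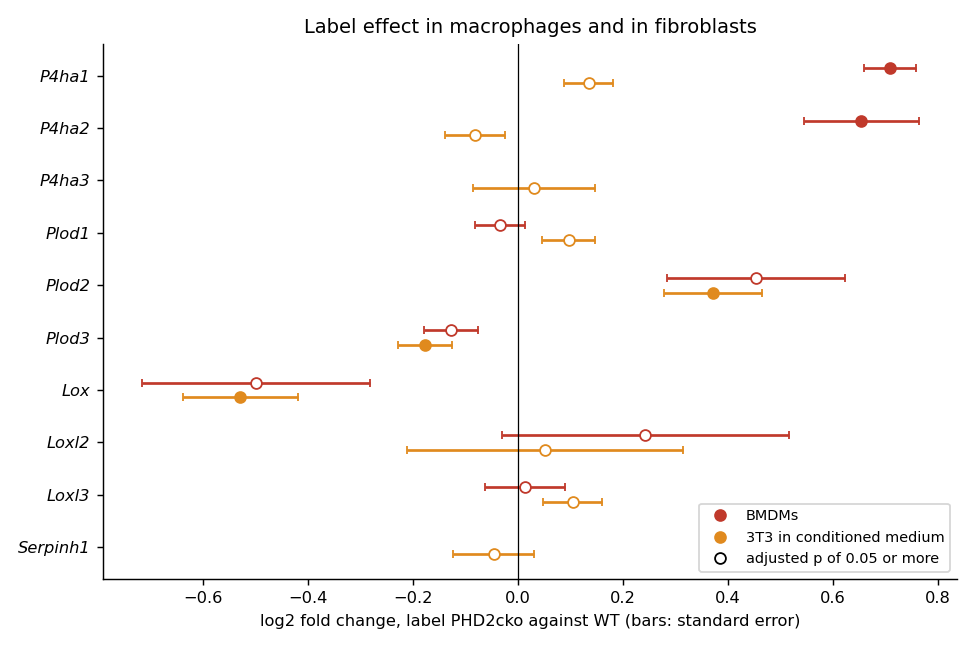
Log2 fold change of each member with the label PHD2cko against WT in BMDMs and in 3T3 fibroblasts in conditioned medium, with bars of 1 standard error and filled points for an adjusted p under 0.05. BMDM points are left out for P4ha3 and Serpinh1, whose BMDM libraries held at most 6 counts. P4ha1 and P4ha2 are at 0.71 and 0.65 in BMDMs and at 0.14 and -0.08 in fibroblasts, while the points of Plod2, Plod3 and Lox lie close together.

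Lysyl hydroxylases gave another order. Plod2 (ENSMUSG00000032374.14, plus strand of chromosome 9 from 92542223 to 92608428) encodes the enzyme that hydroxylates the telopeptides of collagen. In fibroblasts it was at 24.8, 28.4 and 28.2 CPM in WT medium and at 31.8, 38.9 and 34.9 CPM in PHD2cko medium. The 2 media did not overlap, and the log2 fold change was 0.37 (standard error 0.0931, edgeR adjusted p = 0.0176), or 1.29-fold. The call was lost without PHD2cko medium library 2 (log2 fold change 0.30, adjusted p = 0.0643) and without library 3 (0.38, adjusted p = 0.0588). Library 2, with the highest Plod2, was also the one with the lowest macrophage marker share. Macrophage RNA, estimated from the marker share, made up at most 0.255% of the Plod2 value in any fibroblast library. The cause of the Plod2 difference was not tested.

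Plod2 in BMDMs was at 3.25, 2.66 and 3.53 CPM in WT and at 4.01, 3.76 and 5.04 CPM with the label PHD2cko. All 3 PHD2cko libraries were above all 3 WT libraries. Its log2 fold change was 0.45 (standard error 0.170, edgeR adjusted p = 0.151), which did not pass, and it rests on 152 counts in WT and 217 with the label PHD2cko. The effects in both cell types differed by 0.08 (standard error 0.193, edgeR adjusted p = 0.856), so a difference between them was not detectable at this depth.

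Plod3, which also carries glycosyltransferase activity in its protein, lies on the plus strand of chromosome 5 from 136987019 to 136996648 (ENSMUSG00000004846.10). In fibroblasts it was at 161, 150 and 156 CPM in WT medium and at 146, 135 and 132 CPM in PHD2cko medium, with no overlap. The log2 fold change was -0.18 (standard error 0.0522, edgeR adjusted p = 0.0385). This call was weak: it held in 5 of 8 other settings and in 3 of 12 fits with 1 library left out, and the adjusted p reached 0.157 without PHD2cko medium library 3. Macrophage RNA, estimated from the marker share, made up at most 2.47% of the Plod3 value. In BMDMs, Plod3 was at 205, 206 and 211 CPM in WT and at 186, 184 and 200 CPM with the label PHD2cko. These did not overlap either, but the log2 fold change of -0.13 (standard error 0.0520) had an edgeR adjusted p of 0.196, and it passed only in the fit of the 6 BMDM libraries alone (adjusted p = 0.0117). Exons of Znhit1 on the opposite strand and of Mir702 cover 11.9% of the exon bases of Plod3, and the strand setting of the counting is not given in the sources used here.

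Plod1, the lysyl hydroxylase of the helical part of collagen (ENSMUSG00000019055.15, minus strand of chromosome 4 from 147909753 to 147936767), did not pass in either cell type. In BMDMs it was at 201, 183 and 197 CPM in WT and at 188, 183 and 196 CPM with the label PHD2cko, a log2 fold change of -0.03 (standard error 0.0480, edgeR adjusted p = 0.808). In fibroblasts it was at 60.5, 58.0 and 57.7 CPM in WT medium and at 65.0, 61.0 and 62.4 CPM in PHD2cko medium, with a log2 fold change of 0.10 (standard error 0.0508, edgeR adjusted p = 0.230). The fibroblast groups did not overlap. Plod1 is also the member with the largest estimated macrophage part in fibroblasts, up to 5.53% of its value in PHD2cko medium.

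Among the lysyl oxidases, Lox fell in fibroblasts in PHD2cko medium. Lox (ENSMUSG00000024529.14) lies on the minus strand of chromosome 18 from 52516067 to 52529867. It had 129427, 195120 and 136480 counts in WT medium and 92545, 89132 and 94134 in PHD2cko medium. On the CPM scale these were 6585, 7077 and 7214 against 4756, 5157 and 4559. The lowest library in WT medium lay above the highest in PHD2cko medium. The log2 fold change was -0.53 (standard error 0.109, edgeR adjusted p = 0.00621), or 1.44-fold lower. It passed in all 8 other settings and with each of the 12 libraries left out. Macrophage RNA, estimated from the marker share, made up at most 0.000659% of the Lox value, and with the macrophage share subtracted the log2 fold change was -0.50 (edgeR adjusted p = 0.00443).

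Lox in BMDMs had 42, 46 and 25 counts in WT and 33, 20 and 30 with the label PHD2cko. In CPM, 2.73, 2.78 and 1.52 stood against 2.00, 1.37 and 1.57, and the groups overlapped through WT library 3. The log2 fold change was -0.50 (standard error 0.218, edgeR adjusted p = 0.232). It passed without WT library 3 (log2 fold change -0.73, adjusted p = 0.0287) and in no other fit. The effects in both cell types differed by 0.03 (standard error 0.260, edgeR adjusted p = 0.986).

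Loxl3 (ENSMUSG00000000693.10, plus strand of chromosome 6 from 83034173 to 83052562), a lysyl oxidase-like enzyme, was at 15.5, 18.9 and 17.5 CPM in WT BMDMs and at 17.7, 18.2 and 16.6 CPM with the label PHD2cko, with overlap and a log2 fold change of 0.01 (standard error 0.0753, edgeR adjusted p = 0.977). In fibroblasts it was at 97.7, 105 and 104 CPM against 109, 114 and 107 CPM, with no overlap, a log2 fold change of 0.11 (standard error 0.0562) and an edgeR adjusted p of 0.240. Exons of Htra2 on the opposite strand cover 11.6% of its exon bases. Loxl2 (ENSMUSG00000034205.16, plus strand of chromosome 14 from 69609068 to 69695834) had between 17 and 39 counts in every library of both cell types. Its log2 fold changes of 0.24 in BMDMs (standard error 0.273, edgeR adjusted p = 0.725) and 0.05 in fibroblasts (standard error 0.263, edgeR adjusted p = 0.929) did not pass, and differences of the size seen for P4ha1 in fibroblasts could not be told from the spread at this depth.

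Serpinh1 (ENSMUSG00000070436.12, minus strand of chromosome 7 from 99345376 to 99353239), the collagen chaperone, was at 810, 761 and 770 CPM in fibroblasts in WT medium and at 740, 784 and 743 CPM in PHD2cko medium. The groups overlapped, and the log2 fold change was -0.05 (standard error 0.0775, edgeR adjusted p = 0.744). In BMDMs it had 2, 4 and 0 counts in WT and 5, 6 and 6 with the label PHD2cko. The fitted log2 fold change of 1.40 (standard error 0.530, edgeR adjusted p = 0.170) did not pass and depends on the prior count of the fit. With 1 library left out in turn, it ran from 0.83 to 2.31.

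The members were then compared between cell types in the WT groups, where cell type, culture time and medium cannot be told apart. In bulk RNA, fewer cells that transcribe a gene and less of its RNA per cell cannot be told apart either. Plod1 was higher in BMDMs, with a log2 fold change of 1.72 (standard error 0.0503, edgeR adjusted p = 1.26e-12), and Plod3 by 0.41 (standard error 0.0520, edgeR adjusted p = 5.98e-06). The size depends on the scaling: with TMM Plod1 was 3.30-fold and Plod3 1.33-fold higher, and by the total count they were at 273% and 111% of the fibroblast level. P4ha1, P4ha2, Plod2 and Loxl3 were lower in BMDMs, with log2 fold changes of -1.77, -3.94, -3.11 and -2.56. Loxl2 did not differ detectably, at -0.01 (standard error 0.271, edgeR adjusted p = 0.975). In this comparison 85.3% of all genes passed the threshold (40.4% higher in BMDMs and 44.9% lower).

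Lox, Serpinh1 and P4ha3 had the lowest levels in BMDMs relative to fibroblasts, Serpinh1 and P4ha3 with almost no counts and Lox at 2.34 ± 0.713 CPM in WT (SD, n = 3), above Loxl2 at 1.43 ± 0.193 CPM. Their levels in BMDMs are given as a percent of the fibroblast level, as CPM over the total count with the 3 libraries of a group summed. Lox in WT BMDMs was at 0.0278% of its level in fibroblasts in WT medium (exact 95% interval 0.0229 to 0.0334%, counting error only, as for all intervals here). Serpinh1 was at 0.0132% (0.00485 to 0.0288%) on 6 counts, and P4ha3 at 0.152% (0.0183 to 0.549%) on 2 counts. With the label PHD2cko against fibroblasts in PHD2cko medium, Lox was at 0.0280%, Serpinh1 at 0.0366% and P4ha3 at 0.141%. The median of the 16 fibroblast markers was 0.0260% in WT BMDMs and 0.0353% with the label PHD2cko, so these 3 genes lay within the range of fibroblast markers such as Col3a1 (0.00714%), Col5a1 (0.0277%) and Pdgfrb (0.295%) in WT. The source of the counts of these 3 genes in BMDMs was not tested. P4ha2, the lowest of the other members in this ratio, was at 5.43% (4.65 to 6.31%), above Pdgfrb, the highest of the 15 markers other than Fap.

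**Figure D3:**
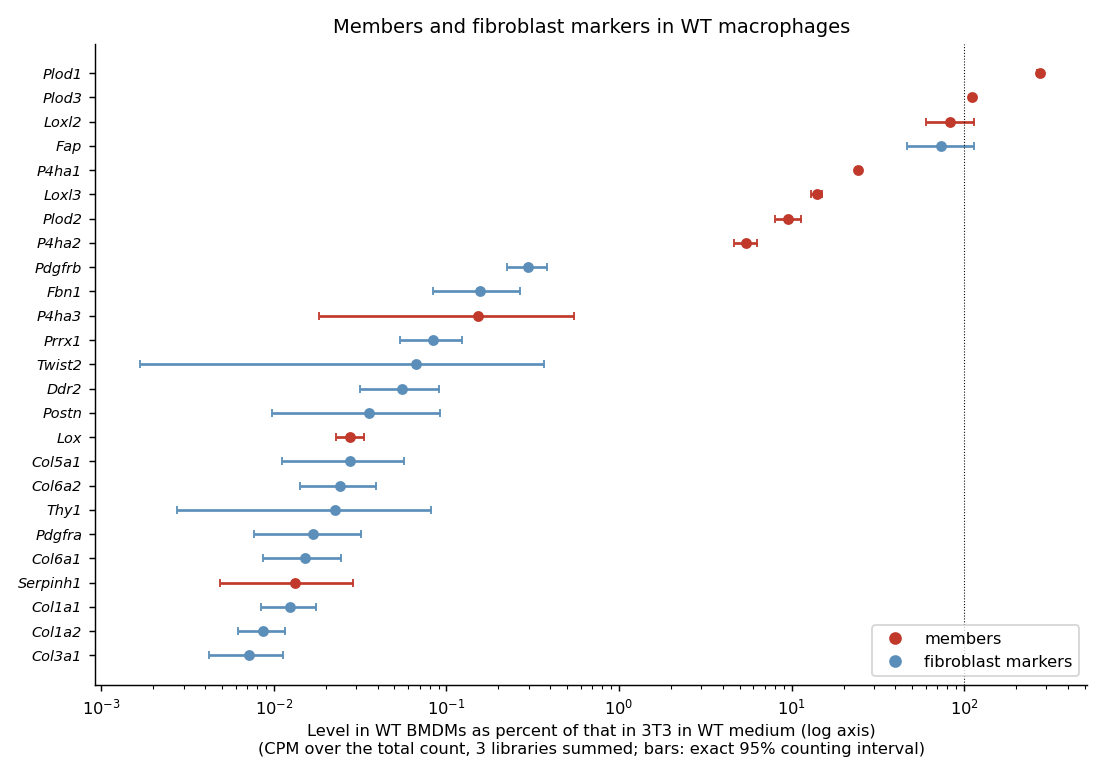
Level in WT BMDMs as a percent of that in 3T3 fibroblasts in WT medium (log axis) for the members and for the fibroblast markers with at least 1 count in WT BMDMs, from CPM over the total count with 3 libraries summed, and exact 95% intervals for counting error. Lox at 0.0278%, Serpinh1 at 0.0132% and P4ha3 at 0.152% lie among the fibroblast markers, and the other 7 members lie at 5.43% or above.

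Levels of different genes were compared as CPM per kb of merged exons. The 3 prolyl 4-hydroxylase subunits summed to 16.4 ± 0.606 CPM per kb in WT BMDMs and to 26.7 ± 1.01 with the label PHD2cko (SD, n = 3 each), and to 70.0 ± 1.5 and 75.0 ± 1.48 in fibroblasts in WT and PHD2cko medium. P4ha1 made up 96.2 ± 0.331% of that sum in WT BMDMs and 96.4 ± 0.0766% with the label PHD2cko, so its share differed by less than the spread while the sum was higher. In fibroblasts its share was 76.6 ± 0.326% in WT medium and 78.6 ± 1.38% in PHD2cko medium. By the longest coding transcript, a setting chosen after seeing the data, its share was 90.5% and 90.9% in BMDMs. In fibroblasts it was 60.9% and 63.9% on that scale.

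For the lysyl hydroxylases, Plod3 made up 61.1 ± 1.18% and Plod1 38.1 ± 1.12% of the summed CPM per kb in WT BMDMs, and Plod2 0.776 ± 0.0925%. With the label PHD2cko, Plod2 was at 1.11 ± 0.128%. In fibroblasts Plod2 made up 10.5 ± 0.968% in WT medium and 14.1 ± 1.69% in PHD2cko medium, and Plod3 71.5 ± 0.936% and 65.8 ± 1.55%. By the longest coding transcript, a setting chosen after seeing the data, Plod3 was at 51.1% and Plod1 at 48.2% in WT BMDMs, the same order, and Plod3 at 49.3% and Plod1 at 49.7% with the label PHD2cko, the other order.

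Among the 3 lysyl oxidases that are members, Lox held 98.5% of the summed CPM per kb in fibroblasts in WT medium and 97.7% in PHD2cko medium, while Loxl3 held 83.2% in WT BMDMs and 85.4% with the label PHD2cko. Loxl1 and Loxl4, lysyl oxidases outside the members, are not in that sum. In fibroblasts Loxl1 was at 477 CPM in WT medium and 527 CPM in PHD2cko medium, above Loxl3 at 102 and 110 CPM. Loxl4 was at 9.62 and 9.50 CPM. By CPM per kb, Lox ranked between 18 and 23 of 31357 genes with a length in fibroblasts in WT medium, and between 21 and 24 in PHD2cko medium. Serpinh1 ranked between 111 and 133 over both media. The highest rank of a member in BMDMs was that of Plod3, between 1008 and 1046 in WT. P4ha1 ranked between 3019 and 3214 in WT BMDMs and between 1892 and 1979 with the label PHD2cko.

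**Figure D4:**
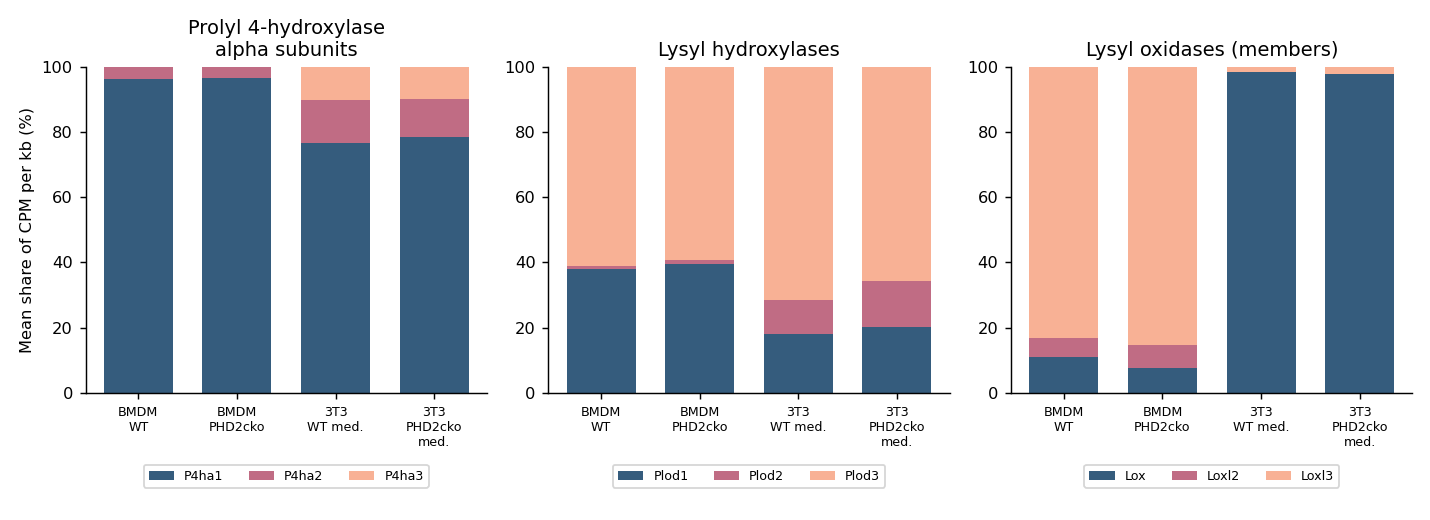
Mean share (%) of each gene in the summed CPM per kb of merged exons of its family, in the 4 groups of 3 libraries, for prolyl 4-hydroxylase alpha subunits, lysyl hydroxylases and the 3 lysyl oxidases among the members. P4ha1 fills over 96% of its bar in BMDMs and 76.6 and 78.6% in fibroblasts, and Lox fills 98.5 and 97.7% of its bar in fibroblasts. By the longest coding transcript, not drawn, P4ha1 was at 90.5 and 90.9% in BMDMs and at 60.9 and 63.9% in fibroblasts.

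Other genes of collagen maturation were read from a hand-written list of 26 genes, of which 21 were tested and Colgalt2, Tll1, Tll2, Pcolce2 and Adamts3 were not. In BMDMs 0 of 21 rose and 2 fell, beside 3.38% and 3.35% of all genes: Colgalt1, which adds galactose to hydroxylysine, with a log2 fold change of -0.44 (standard error 0.0427, edgeR adjusted p = 4.52e-05), and Sec24d, a coat protein of procollagen export, with -0.22 (standard error 0.0477, edgeR adjusted p = 0.0130). The median of the list was -0.05, and 18 genes with more than 3 counts in some BMDM library had a median of -0.07, beside a median over all genes of 0.00022.

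In fibroblasts, 3 of 21 genes of the list rose and 1 fell, or 19.0% in all, near the 15.7% of all genes (8.93% higher and 6.75% lower). Tmem38b, a channel of the endoplasmic reticulum needed for collagen synthesis, rose by 0.93 (log2, standard error 0.183, edgeR adjusted p = 0.00450), Bmp1, a procollagen C-proteinase that also activates lysyl oxidase, by 0.41 (standard error 0.0634, edgeR adjusted p = 0.00102), and Adamts2, a procollagen N-proteinase, by 0.25 (standard error 0.0790, edgeR adjusted p = 0.0473). P3h3, of the prolyl 3-hydroxylase family, was at -0.25 (standard error 0.0524, edgeR adjusted p = 0.00645). The median of the list was -0.05, beside -0.0046 over all genes. Of the 21 genes, 4 had label effects that differed between the cell types, beside 12.3% of all genes. The label effect of P3h3, as log2 fold change, was higher in BMDMs than in fibroblasts by 0.45 (edgeR adjusted p = 0.00386). Those of Colgalt1, Sec24d and Tmem38b were lower in BMDMs by 0.33, 0.23 and 0.99 (edgeR adjusted p = 0.00301, 0.0381 and 0.0184).

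A reference list of 24 known HIF target genes outside collagen maturation shows the scale of the label effect. In BMDMs 15 of 24 rose and 0 fell, beside 3.38% and 3.35% of all genes, with a median log2 fold change of 0.35 over all 24 genes and of 0.38 over the 23 with more than 3 counts in some BMDM library. Egln3, the gene of PHD3, was at 1.96, Pdk1 and Bnip3, which restrain mitochondrial metabolism, at 0.96 and 0.85, and the glycolytic enzyme Pgk1 at 0.85. P4ha1 and P4ha2, at 0.71 and 0.65, lay above the median of that list and below these 4 genes, all of which passed. The list was not uniform, as 9 of the 24 did not pass. Without overlap in CPM, 16 of the 24 were higher and 3 lower, beside 16.3% and 15.6% of all genes. Among the members, the median was 0.13 over all 10 and 0.24 over the 9 with more than 3 counts in some BMDM library. Those 9 include Serpinh1, with at most 6 counts, and without it the other 8 had a median of 0.13.

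In fibroblasts 5 of the 24 HIF targets rose (Pfkfb3, Pdk1, Pgk1, Eno1 and Ndrg1) and 2 fell (Hk2 and Ddit4), beside 8.93% and 6.75% of all genes, with a median of 0.09. Of these, only Eno1 overlapped in CPM between the media. The macrophage part of these values was not estimated. All 5 that rose were higher in BMDMs labelled PHD2cko than in fibroblasts in PHD2cko medium, Pfkfb3 at 40.0 against 7.28 CPM. Pdk1 rose by 0.38 and Pgk1 by 0.31 (edgeR adjusted p = 0.000136 and 0.00685), while Egln3 was at 0.30 and Bnip3 at 0.21 (edgeR adjusted p = 0.0518 and 0.0722). Plod2, at 0.37, was of the size of Pdk1, and Lox, also known as a HIF target, was at -0.53. The members had a median of 0.04. Of the HIF targets, 12 of 24 had a larger and 1, Pfkfb3, a smaller effect in BMDMs than in fibroblasts, beside 4.58% and 7.71% of all genes.

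**Figure D5:**
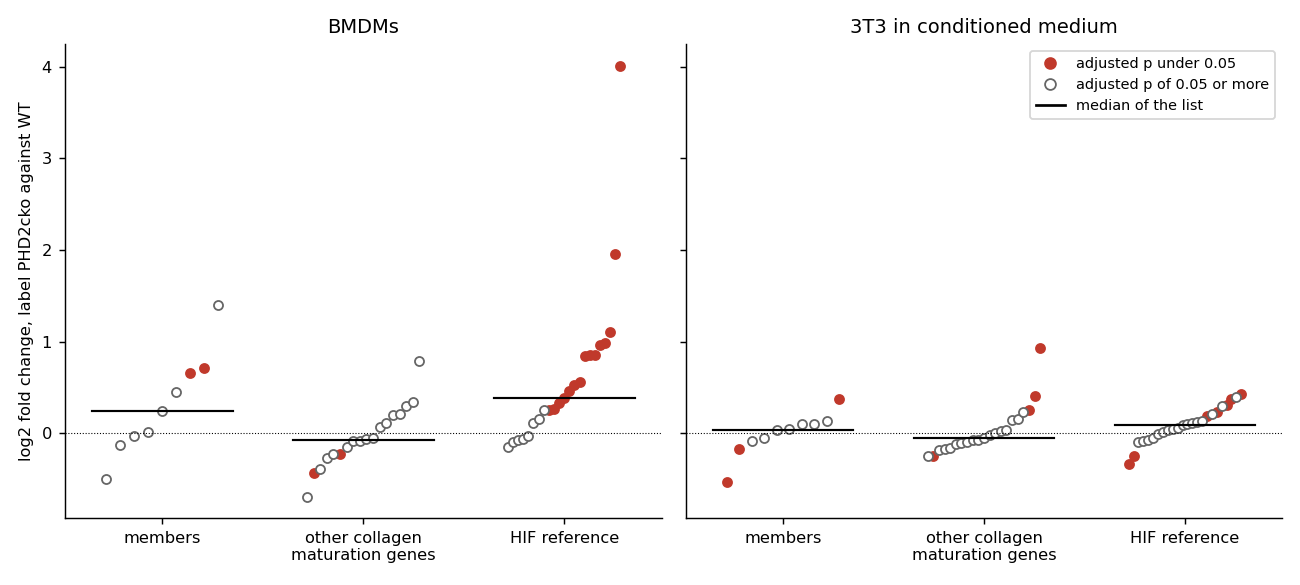
Log2 fold change with the label PHD2cko against WT of each gene with more than 3 counts in some library of the 2 groups, for the members, other genes of collagen maturation and HIF targets, with filled points for an adjusted p under 0.05 and a line at the median. In BMDMs the medians of the genes drawn are 0.24 (0.13 without Serpinh1, which held at most 6 counts), -0.07 and 0.38, and in fibroblasts 0.04, -0.05 and 0.09.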

How the data were processed

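Analyses used 12 libraries of polyadenylated RNA in 4 groups of 3. The authors deposited estimated counts per gene, neither normalized nor filtered, which Kallisto had made against GRCm38, and the values are whole numbers. Positions are from GENCODE and promoters from RefSeq. In edgeR 4.0.16 (R 4.3.3), filterByExpr selected 14285 genes, TMM scaled the libraries, and 1 quasi-likelihood fit over the 12 libraries gave 4 two-sided contrasts, each adjusted over these genes (Benjamini-Hochberg). CPM are counts over the effective library size unless the total count is named. CPM per kb were divided by merged exon length from GENCODE. Folds are not given where every library of both groups held at most 3 counts. Only counting error is covered by intervals and floors. The macrophage share of a fibroblast library was its summed marker CPM over that of BMDMs with the same label, and where subtracted, the mean BMDM profile was scaled to that share and taken off each library.

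The members and gene lists were chosen with earlier results of these data known. Named genes were the members, Egln1, genes of the collagen maturation list past the threshold in either label comparison, Egln3, Pdk1, Bnip3 and Pgk1 of the HIF list, and markers at 0 or highest in the other cell type. Other markers, Loxl1, Loxl4, Pfkfb3, Eno1, Ndrg1, Hk2 and Ddit4 were named after their values were seen. The same replicate number did not pair libraries in the sources used here. Alternatives were DESeq2 1.42.0 size factors in edgeR, its Wald test, limma 3.58.1 with voom, 10 counts or more in every library, a filter of 1 count only, the replicate number as a block, the 6 libraries compared alone, subtraction of the macrophage share in fibroblasts, and each library left out.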

Additional observations from a re-analysis of the deposited data

Results flagged for a closer look

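The effect of the label PHD2cko differed between cell types for 2 members, by the contrast of both effects in 1 fit. For P4ha1 the log2 fold change in BMDMs exceeded that in fibroblasts by 0.57 (edgeR adjusted p = 0.000247), with all 3 libraries labelled PHD2cko above all 3 WT libraries in BMDMs and also in fibroblasts. For P4ha2 it exceeded it by 0.74 (edgeR adjusted p = 0.00178), with no overlap in BMDMs and overlap in fibroblasts. With 3 libraries in a group, no test for single outlying libraries was made.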

How the results depend on the processing

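P4ha1 and P4ha2 in BMDMs, their differences between cell types and Lox in fibroblasts stayed past the threshold in every fit run. In fibroblasts the members that rose were 1 in the reported fit and 2, with P4ha1 added, under DESeq2 size factors, the DESeq2 Wald test, limma-voom, 10 counts in every library and the macrophage share subtracted. Those that fell went from 2 to 1, with Plod3 lost, without a filter, with the 6 libraries alone and with the replicate number as a block. In BMDMs the members that fell went from 0 to 1 with the 6 libraries alone. Over all genes, the 6 libraries alone gave 2534 calls in BMDMs in place of 961 and 912 in fibroblasts in place of 2240.

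The block gave 815 calls in BMDMs and 1953 in fibroblasts and changed no other call of a member. Deviations of same-numbered libraries correlated between -0.125 and 0.0618, and not every library correlated best with its own number.

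With 1 library left out, calls over all genes were 527 to 1889 in BMDMs, 1260 to 2757 in fibroblasts, 1272 to 2316 for the difference and 11952 to 12448 between cell types. BMDM members that fell were 0 to 1, fibroblast members that rose 0 to 2 and that fell 1 to 2, and members with a larger effect in BMDMs 2 to 3, with Serpinh1 added without WT BMDM library 2, where its WT libraries held 2 and 0 counts, so nothing is drawn from that call. Signs turned in this way only for values that did not pass, whose log2 ranges were: in BMDMs Loxl2 -0.074 to 0.44 and Loxl3 -0.056 to 0.085, in fibroblasts P4ha3 -0.048 to 0.12, Loxl2 -0.092 to 0.19 and Serpinh1 -0.073 to 0.0023, for the difference Plod2 -0.067 to 0.17, Lox -0.21 to 0.18 and Loxl2 -0.13 to 0.39, and between cell types Loxl2 -0.12 to 0.10. The difference for Lox was also -0.0042 with the macrophage share subtracted, and Loxl2 between cell types 0.014 with limma-voom. The causes were not tested. By the longest coding transcript, a length chosen after seeing the data, P4ha2 was 28.4% of prolyl 4-hydroxylase levels in fibroblasts in WT medium in place of 13.2%. Depth limits Lox, Loxl2, Plod2, P4ha3 and Serpinh1 in BMDMs, with at most 96 counts in a library.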
